A study of Homo sapiens with 21 samples.

Results

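The genes described here are 36 genes of the integrated stress response and the unfolded protein response, chosen by symbol from a list and found among the 53515 genes counted in each library. They comprise 10 stress transcription factors and regulators, 11 genes of amino acid synthesis and transport, 3 secreted or surface proteins and 12 genes of endoplasmic reticulum (ER) folding and degradation. Each of the 36 symbols matched 1 Ensembl gene. RNA of 17 human cancer cell lines was sequenced in 21 libraries to compare 7 parental cell lines with 10 drug-resistant cell lines derived from them. HepG2S1 and HepG2S3 were selected with sorafenib from the liver cancer line HepG2, and PancB1Q and PancB1V with 5-fluorouracil from the pancreatic line PancVB. Of the EGFR-mutant lung lines, HCC4006P1 was the source of HCC4006ER under erlotinib, and HCC4006P2 and HCC827P those of HCC4006GR and HCC827GR under gefitinib. In the ovarian lines, U10 and U100 came from UWB1289 under olaparib and IGROV-1/CDDP from IGROV-1 under cisplatin. HepG2 and its derivatives grew in William's E medium and all other lines in an RPMI medium, both with serum, so that medium and line cannot be told apart between HepG2 and the other lines. Each resistant line is the outcome of a selection under drug over months. Whether drug was present when RNA was taken is not given in the sources used here.

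Cells that cannot keep up with amino acid supply or with protein folding in the ER phosphorylate the initiation factor eIF2, which lowers general translation but favours translation of the transcription factor ATF4. ATF4 then switches on genes for amino acid synthesis and import, for redox balance and, with its target DDIT3 (CHOP), for cell death. In the unfolded protein response the ER sensors PERK, IRE1 and ATF6 act in parallel: PERK feeds into ATF4, IRE1 splices the XBP1 mRNA, and ATF6 together with XBP1 raises chaperones such as HSPA5 (BiP) and the machinery that degrades misfolded proteins. Because ATF4 is controlled at translation and XBP1 at splicing, counts per gene give their mRNA and not their activity.

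The promoter stretches below are shown because they hold the letters that the known factors of both pathways read. Windows from 250 bases before to 50 bases after a transcription start were taken from RefSeq for 33 of the 36 genes (47 windows, GRCh38.p14), and each was placed on GRCh37 by an exact match. They were searched on both strands for TGATGNAA, the core of the C/EBP-ATF response element (CARE) bound by ATF4 dimers, for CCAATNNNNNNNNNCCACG, the ER stress response element (ERSE) bound by ATF6, and for TGACGTGG, an unfolded protein response element (UPRE). The CARE core was found in 6 of 33 genes, against 3.62% of all 35116 windows in the table. The ERSE was found in 5 of the 12 ER genes and in no other member, against 0.0769% of all windows. The UPRE was found in HYOU1 and ALDH18A1, against 0.729% of all windows. The counts of members are per gene, while these shares are per window. A gene with several windows had more occasions for a match, so the figures are not on the same footing. A match of letters is a description and not a measured binding site.

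The CARE core is in capitals in the first 5 stretches, which are 68 bases long, run 5′ to 3′ on the strand of the gene and lie upstream of the start. In CHAC1 and HERPUD1 the match is on the opposite strand. The match of SLC3A2 lies after the start and is not shown.
ASNS GRCh37 chr7:97501751-97501818 (- strand): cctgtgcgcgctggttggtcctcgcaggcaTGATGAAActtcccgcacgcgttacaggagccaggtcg
ATF3 GRCh37 chr1:212738528-212738595 (+ strand): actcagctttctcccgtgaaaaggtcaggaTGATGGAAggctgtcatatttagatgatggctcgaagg
CEBPG GRCh37 chr19:33864947-33865014 (+ strand): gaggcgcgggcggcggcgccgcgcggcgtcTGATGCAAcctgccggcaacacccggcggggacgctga
CHAC1 GRCh37 chr15:41245430-41245497 (+ strand): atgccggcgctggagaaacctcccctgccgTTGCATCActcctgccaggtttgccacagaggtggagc
HERPUD1 GRCh37 chr16:56965848-56965915 (+ strand): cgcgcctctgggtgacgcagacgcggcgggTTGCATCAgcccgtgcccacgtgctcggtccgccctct

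The ERSE is in capitals in the next 6 stretches, which include both matches of HSP90B1. The matches of CALR, CRELD2 and the second of HSP90B1 are on the opposite strand.
CALR GRCh37 chr19:13049173-13049246 (+ strand): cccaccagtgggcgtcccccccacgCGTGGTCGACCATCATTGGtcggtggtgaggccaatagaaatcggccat
CRELD2 GRCh37 chr22:50312172-50312250 (+ strand): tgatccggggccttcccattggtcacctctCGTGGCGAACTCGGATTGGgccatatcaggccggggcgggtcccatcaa
HSP90B1 GRCh37 chr12:104323964-104324042 (+ strand): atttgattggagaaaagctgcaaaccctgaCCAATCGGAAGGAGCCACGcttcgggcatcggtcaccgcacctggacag
HSP90B1 GRCh37 chr12:104324069-104324147 (+ strand): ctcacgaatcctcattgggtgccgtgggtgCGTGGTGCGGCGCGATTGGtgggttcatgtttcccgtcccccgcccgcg
HSPA5 GRCh37 chr9:128003640-128003718 (- strand): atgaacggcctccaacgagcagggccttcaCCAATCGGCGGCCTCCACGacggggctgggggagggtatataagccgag
XBP1 GRCh37 chr22:29196561-29196639 (- strand): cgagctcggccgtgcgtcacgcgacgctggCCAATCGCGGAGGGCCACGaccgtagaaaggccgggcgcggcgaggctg

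**Figure D1:**
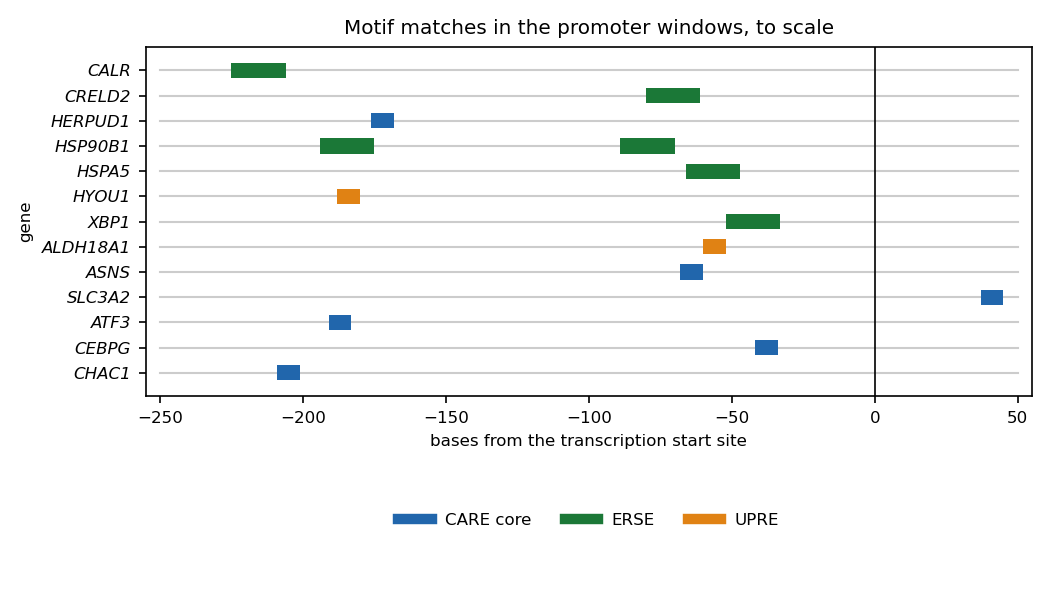
Position of each motif match in the promoter windows of 13 genes, in bases from the transcription start site, drawn to scale for the CARE core, the ERSE and the UPRE. The ERSE matches all belong to ER genes, and of the CARE matches only that of SLC3A2 lies after the start.

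Total counts on genes ranged from 9851195 in HepG2S1 to 36639473 in HepG2 replicate 1, so that 3 counts equalled 0.305 to 0.0819 CPM (counts scaled to a total of 1000000 per library). HepG2, HepG2S3, HCC4006P1 and HCC4006ER had 2 libraries and the other 13 lines had 1. Nothing states that the replicates came from separate cultures, so p-values measure the spread between these libraries, which may be technical. HCC4006P1 replicate 1 had counts for 1 of the 8694 genes on chromosome 7 from position 30620149 on and on chromosomes 8, 9, X and Y and the mitochondrial genome. ASNS, PSAT1, VLDLR, HSPA5, DNAJB9 and PDIA4 lie there, are given from HCC4006P1 replicate 2 alone, and were left out of the test of HCC4006ER, which covers 30 of the 36 genes. Part of the libraries may stem from a 3′ end kit and part from a stranded kit. The study's methods name either kit, the sample labels describe a stranded kit for all, and which line had which is not given in the sources used here. A difference of kit would also alter CPM between lines, so that kit and line cannot be told apart where levels of lines are compared. Levels are given as CPM and are never compared between genes.

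The liver label was checked against ALB, APOA1, TTR, SERPINA1 and AFP. The summed level of these markers was 25250 CPM in HepG2, with all 5 at 1 CPM or more, but 22.7 CPM in HepG2S3, and all 5 were at 0 in HepG2S1. Of the ductal epithelium markers, the keratin KRT7 stood at 0.628 and 1.43 CPM in HepG2 against 2733 CPM in HepG2S1 and 2739 and 3086 CPM in HepG2S3. The ductal transcription factor SOX9 went the other way, from 234 and 261 CPM in HepG2 to 1.73 CPM in HepG2S1 and 0.844 and 0.653 CPM in HepG2S3. The keratin KRT19 was at 220.3 and 473 CPM in HepG2, 102 CPM in HepG2S1 and 167 and 159.96 CPM in HepG2S3. Every HepG2 contrast below therefore compares libraries that also differ in these markers, and the part of that difference in the values of the stress genes was not tested. The study's low-coverage genome sequencing found small copy number changes in all pairs but those of HepG2. The part of copy number in the HepG2 contrasts was not tested either. Of the 4 lung markers, all were at 1 CPM or more in HCC4006P2 and 1 in HCC4006P1.

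HepG2 had the highest level of the 7 parental lines for 21 of the 36 genes (58.3%), against 14.8% of the 17917 genes at 1 CPM or more in a parental line. This held for 8 of 11 amino acid genes, 7 of 12 ER genes, 5 of 10 stress regulators and 1 of 3 secreted or surface genes. UWB1289 came next, with the highest level of 6 genes, namely DDIT3, PHGDH, SHMT2, CBS, STC2 and HYOU1. The contrasts of HepG2S1 and HepG2S3 therefore start from a parental line high in these genes. Medium, and kit where it differed, cannot be told apart from line in this ranking.

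The replicates of HepG2 differed in the same genes. From replicate 1 to replicate 2, 9 of 11 amino acid genes stood higher, with ASNS at 203 and 527 CPM, CTH at 39.4 and 103 CPM, PSAT1 at 597 and 1053 CPM and PHGDH at 136 and 266 CPM. In contrast, 10 of 12 ER genes stood lower, with PDIA4 at 638 and 336 CPM and HSPA5 at 1331 and 922 CPM. Of all 13352 genes at 1 CPM or more in either replicate, 6551 stood higher and 6801 lower. The named genes are among the larger differences. Others were near 0 on the log2(CPM + 1) scale, at 0.018 for PYCR1, 0.039 for CBS and -0.025 for HYOU1. Of the 36 genes, 5 (13.9%) differed by at least 1 on the log2(CPM + 1) scale between the HepG2 replicates, against 5.08% of all genes at 1 CPM or more. None of the members differed that far between the replicates of HepG2S3, HCC4006P1 (30 members) or HCC4006ER. The shares of all genes were small there as well, at 0.0902%, 2.35% and 0.00696%.

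**Figure D2:**
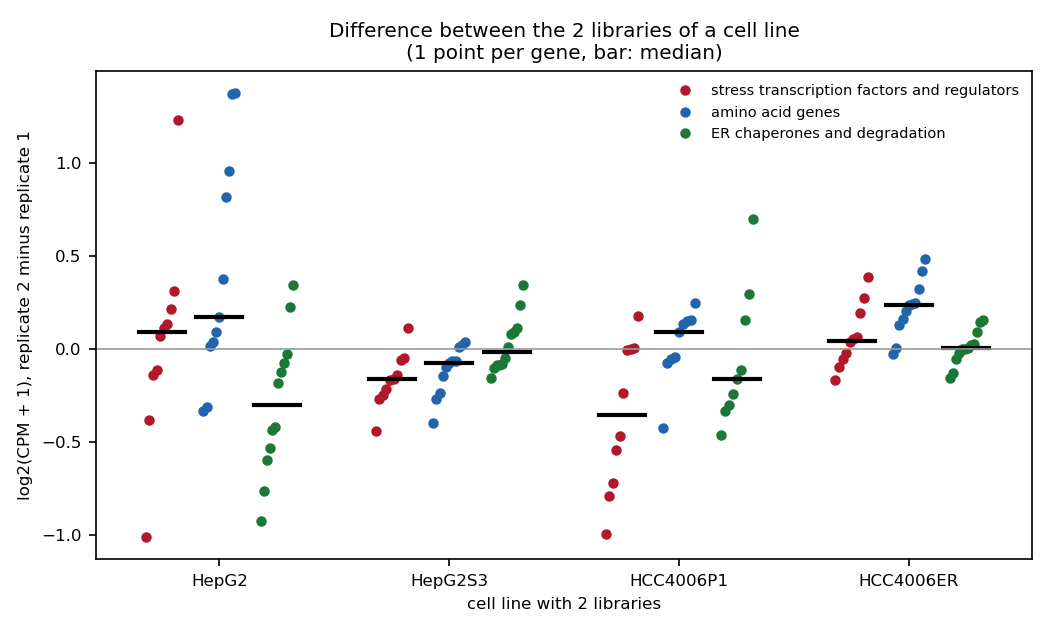
Difference between replicate 2 and replicate 1 on the log2(CPM + 1) scale for each gene of 3 groups in the 4 cell lines with 2 libraries, with the median as a bar. In HepG2 the median was 0.17 for amino acid genes and -0.30 for ER genes.

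Over 10 pairs of a resistant and a parental line, the 36 genes gave 360 log2 changes, which are differences of log2(CPM + 1) between cell line means. Of these, 35 were higher by at least 1 and 41 lower by at least 1. This is 9.72% and 11.4% of the values, beside 11.8% and 9.17% of all genes at 1 CPM or more in either line. Without HepG2S1 and HepG2S3, 29 of 288 values were higher and 23 lower by at least 1, or 10.1% and 7.99%, beside 8.12% and 6.96% of all genes. Of the members, 16 genes were higher by at least 1 in some pair, 18 lower, 10 both, and 12 in no pair. The same counts over all genes are not given beside them, so they only describe the members. Counts of pairs above or below the parental level, given per gene below, have such a share only for all 10 pairs. The pairs are not independent, since HepG2S1 and HepG2S3 share HepG2, PancB1Q and PancB1V share PancVB, and U10 and U100 share UWB1289. In bulk RNA, fewer cells of a kind and less RNA per cell cannot be told apart.

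**Figure D3:**
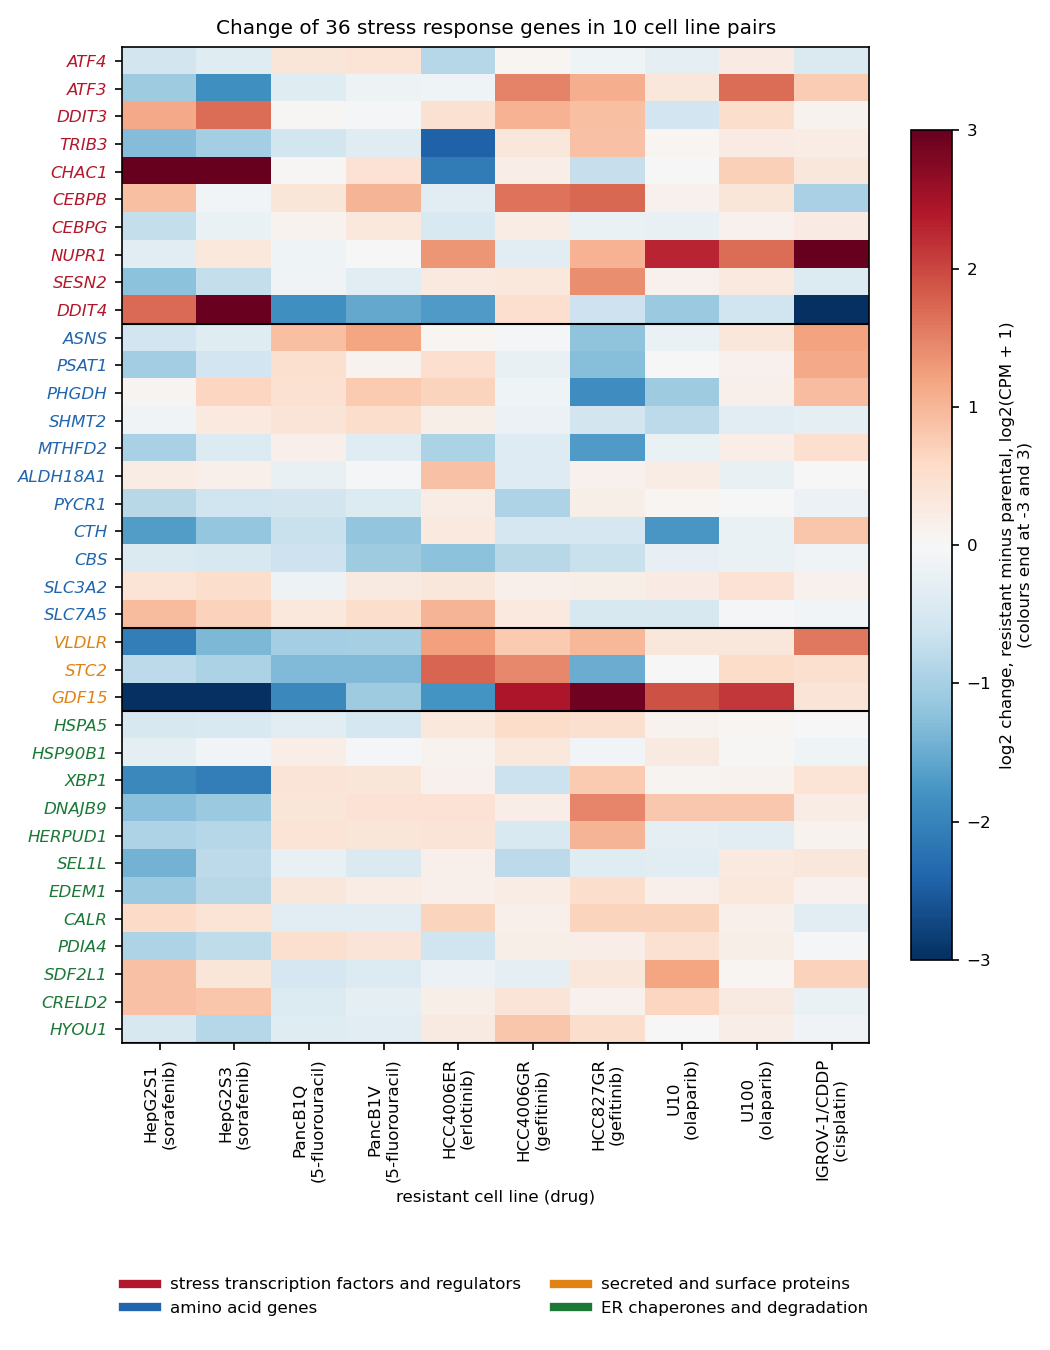
Log2 change of each of the 36 genes (rows, grouped by role) in the 10 resistant lines (columns, with the drug), as the difference of log2(CPM + 1) between resistant and parental line. GDF15 ranged from -3.61 in HepG2S1 to 2.93 in HCC827GR, and CBS was below 0 in all 10 columns.

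The share of all genes past 1 was largest in the HepG2 derivatives, and the members are read against it. In HepG2S1, 3 members were higher and 11 lower by at least 1, beside 25.5% and 18.4% of all genes. In HepG2S3, 3 were higher and 7 of 36 lower, beside 27.3% and 17.7%, so that the share lower was near that of all genes. With TMM-scaled totals 17 members were lower in HepG2S1 and 14 in HepG2S3, and without HepG2S3 replicate 2, 5 were lower in HepG2S3. The TMM factors were 0.797 and 0.790 for HepG2, 1.05 for HepG2S1 and 0.989 and 0.968 for HepG2S3. Such scaling moves all genes of both contrasts down. The shares of all genes under such alternatives are not given here, so these counts are not read against the shares above. The median change of all genes was 0.25 in HepG2S1 and 0.28 in HepG2S3, while that of the ER genes was -0.70 and -0.77 and that of the amino acid genes -0.44 and -0.36. PancB1Q had 0 higher and 4 lower, beside 6.1% and 9.41% of all genes, and PancB1V 2 and 5, beside 8.89% and 7.25%. HCC4006ER had 4 higher and 5 lower, beside 13.4% and 10.1%. Without HepG2 replicate 1, HepG2S1 had 5 higher, and without HCC4006P1 replicate 2, HCC4006ER had 2 higher. In the latter case the genes with no counts in HCC4006P1 replicate 1, VLDLR among them, drop out for lack of data.

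Members past 1 were mostly higher in HCC4006GR, with 5 higher and 0 lower beside 7.75% and 7.47% of all genes. HCC827GR had 8 higher and 5 lower, beside 10.6% and 7.67%, and these split by role: the median of its stress regulators was 0.89 and that of its ER genes 0.51, but that of its amino acid genes was -0.54, with all genes at 0.05. U10 had 3 in each direction, beside 6.27% and 5.11%, and U100 had 3 higher and 0 lower, beside 6.43% and 1.73%. IGROV-1/CDDP had 4 higher and 1 lower, beside 5.55% and 7.21%.

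In the edgeR quasi-likelihood test of HepG2S3 against HepG2, 63.5% of 16929 genes were called at an adjusted p under 0.05, with 31.4% higher and 32.1% lower. Of the 36 members, 3 rose and 22 fell. The 3 that rose were CHAC1, DDIT4 and DDIT3. The genes that fell were 6 of 10 stress regulators, 5 of 11 amino acid genes, all 3 secreted or surface genes and 8 of 12 ER genes. The median log2 fold change was -0.75 over the members and -0.01 over all genes. Without TMM scaling, 6761 genes were called higher and 4305 lower instead of 5308 and 5436, and 6 members rose and 14 fell. Leaving out a replicate changed the numbers of members called and also those of all genes, both given as ranges in the closing section. Fewer of all genes were called without either HepG2S3 replicate, so a member's call lost there is not particular to the members.

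In the same test of HCC4006ER against HCC4006P1, 46.1% of 13743 genes were called, with 22.5% higher and 23.6% lower. Of the 30 members tested, 6 rose and 9 fell, and the median log2 fold change was 0.05, against 0.02 over all genes. Here 6 of 10 stress regulators fell and 1 rose, while of 9 amino acid genes 3 rose and 2 fell. Of 9 ER genes tested, only CALR, a lectin chaperone, was called, at 0.56 ± 0.11 (SE, edgeR adjusted p = 0.0075), a call lost without either HCC4006ER replicate, at 0.58 and 0.54. Fewer of all genes were also called without either HCC4006ER replicate, so a member's call lost there is not particular to the members. The ranges are given in the closing section.

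ATF4, the central transcription factor of the integrated stress response (ENSG00000128272, chr22:39915700-39918688), stayed within 1 of its parental level in all 10 pairs, with changes from -0.84 in HCC4006ER to 0.41 in PancB1V. ATF4 stood at 438 and 481 CPM in HepG2, 312 in HepG2S1 and 366 and 351 in HepG2S3. In the lung lines, ATF4 was at 287 and 243 in HCC4006P1 against 144 and 150.4 in HCC4006ER, at 163 in HCC4006P2 against 170.4 in HCC4006GR, and at 241 in HCC827P against 218 in HCC827GR. PancVB had 165, PancB1Q 211 and PancB1V 219, UWB1289 had 231, U10 191 and U100 274, and IGROV-1 had 124 and IGROV-1/CDDP 91.5. It fell in HepG2S3, at -0.67 ± 0.13 (SE, edgeR adjusted p = 0.0069), and in HCC4006ER, at -0.95 ± 0.12 (SE, edgeR adjusted p = 0.0016). The HepG2S3 call was lost without TMM scaling, at -0.36, and without either HepG2S3 replicate, at -0.69 without replicate 1 and -0.62 without replicate 2. The ATF4 mRNA thus changed little beside several of the targets below.

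DDIT3, the transcription factor CHOP (ENSG00000175197, chr12:57910371-57915520), was among the 3 members that rose in HepG2S3. HepG2 gave 29.7 and 14.3 CPM of DDIT3, against 49.4 in HepG2S1 and 82.9 and 60.9 in HepG2S3. HCC4006P1 gave 19.4 and 13.7 and HCC4006ER 23.4 and 23.1, HCC4006P2 gave 11.1 and HCC4006GR 23.8, and HCC827P gave 9.86 and HCC827GR 19.3. The DDIT3 level was 16.9 in PancVB, 17.4 in PancB1Q and 16.4 in PancB1V, then 23.1 in UWB1289, 15.2 in U10 and 33.8 in U100, and 13.9 in IGROV-1 against 14.99 in IGROV-1/CDDP. Both HepG2S3 libraries lay above both HepG2 libraries, and the edgeR log2 fold change was 1.39 ± 0.38 (SE, edgeR adjusted p = 0.024). Without HepG2S3 replicate 1 the log2 fold change was 1.17 and the call was lost. Both HCC4006ER libraries also lay above both HCC4006P1 libraries, but 0.39 ± 0.18 (SE, edgeR adjusted p = 0.13) did not pass, and without HCC4006P1 replicate 1 the value was 0.60 and was called. DDIT3 was higher than in the parental line in 8 of 10 pairs and by at least 1 in HepG2S1, HepG2S3 and HCC4006GR.

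ATF3, a stress-induced repressor of transcription (ENSG00000162772, chr1:212738676-212794119), stood lower in the HepG2 derivatives and higher in the gefitinib-resistant lines and U100. ATF3 measured 49.9 and 45.3 CPM in the HepG2 libraries, 13.4 and 11.9 CPM in those of HepG2S3 and 22.2 CPM in HepG2S1. ATF3 went from 37.9 and 22.6 in HCC4006P1 to 27.2 and 28.2 in HCC4006ER, from 7.79 in HCC4006P2 to 23.8 in HCC4006GR, and from 10.8 in HCC827P to 24.1 in HCC827GR. For ATF3, PancB1Q (8.79) and PancB1V (10.2) compare with 11.6 in PancVB, U10 (15.4) and U100 (40.7) with 11.96 in UWB1289, and IGROV-1/CDDP (14.9) with 8.44 in IGROV-1. The fall in HepG2S3, at -2.23 ± 0.16 (SE, edgeR adjusted p = 0.00026), passed the test, whereas HCC4006ER gave -0.22 ± 0.23 (SE, edgeR adjusted p = 0.46). The untested changes were 1.50 in HCC4006GR, 1.08 in HCC827GR and 1.68 in U100. The promoter of ATF3 carries the CARE core printed above.

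TRIB3, a pseudokinase that restrains ATF4 and AKT (ENSG00000101255, chr20:343479-378203), fell in both tested pairs. In HepG2, TRIB3 was at 599 and 459 CPM, in HepG2S1 at 214 and in HepG2S3 at 279 and 241. The lung pairs had 152 and 172 CPM of TRIB3 in HCC4006P1 and 26.6 and 32.4 in HCC4006ER, 98.8 in HCC4006P2 and 126 in HCC4006GR, and 52.8 in HCC827P and 97.3 in HCC827GR. Values of TRIB3 elsewhere were 52.5 in PancVB, 35.7 in PancB1Q, 40.6 in PancB1V, 66.4 in UWB1289, 69.4 in U10, 78.8 in U100, 23.7 in IGROV-1 and then 27.9 in IGROV-1/CDDP. The HCC4006ER libraries lay far below the HCC4006P1 libraries, at -2.57 ± 0.17 (SE, edgeR adjusted p = 0.00011), and the HepG2S3 value was -1.34 ± 0.19 (SE, edgeR adjusted p = 0.0024). HepG2S1 stood -1.30 from HepG2, and the 7 remaining pairs lay between -0.55 in PancB1Q and 0.87 in HCC827GR.

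CHAC1, an enzyme that degrades glutathione (ENSG00000128965, chr15:41245160-41248710), went in opposite directions in the tested pairs. CHAC1 stood at 0.273 and 1.98 CPM in HepG2, 19.1 in HepG2S1 and 15.4 and 16.7 in HepG2S3. In the lung lines, CHAC1 was at 18.6 and 10.3 in HCC4006P1 against 2.13 and 3.08 in HCC4006ER, at 12.9 in HCC4006P2 against 14.8 in HCC4006GR, and at 6.63 in HCC827P against 3.73 in HCC827GR. PancVB had 2.03, PancB1Q 2.1 and PancB1V 3.1, UWB1289 had 10.1, U10 10.1 and U100 17.2, and IGROV-1 had 1.49 and IGROV-1/CDDP 2.18. It rose in HepG2S3, at 3.53 ± 0.76 (SE, edgeR adjusted p = 0.01), and fell in HCC4006ER, at -2.56 ± 0.33 (SE, edgeR adjusted p = 0.0016). The HepG2 replicates differed several-fold at a low level, and the edgeR value of HepG2S3 was 2.70 without HepG2 replicate 1 and 5.53 without HepG2 replicate 2. Both HepG2S3 libraries and HepG2S1 exceeded both HepG2 libraries. The HepG2S1 change was 3.24 ± 0.87 (SD over 2 pairings of its 1 library, so the spread of HepG2 only). TRIB3 and CHAC1, both known targets of ATF4, therefore moved apart in HepG2S3 and together in HCC4006ER.

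DDIT4 (REDD1), an inhibitor of mTORC1 that hypoxia also induces (ENSG00000168209, chr10:74033678-74035794), changed by at least 1 in 7 of 10 pairs. HepG2 gave 149 and 185 CPM of DDIT4, against 541 in HepG2S1 and 1363 and 1237 in HepG2S3. HCC4006P1 gave 271 and 186 and HCC4006ER 73.9 and 65.7, HCC4006P2 gave 162 and HCC4006GR 231, and HCC827P gave 462 and HCC827GR 298. The DDIT4 level was 78.9 in PancVB, 21.5 in PancB1Q and 26.5 in PancB1V, then 221 in UWB1289, 101 in U10 and 146 in U100, and 73.6 in IGROV-1 against 7.00 in IGROV-1/CDDP. It rose in HepG2S3, at 2.65 ± 0.17 (SE, edgeR adjusted p = 0.00019), and fell in HCC4006ER, at -1.81 ± 0.18 (SE, edgeR adjusted p = 0.00053). The library of IGROV-1/CDDP lay lowest of all 21, with a log2 change of -3.22 (95% counting interval -3.42 to -3.02). DDIT4 was lower by at least 1 in 5 pairs and higher by at least 1 in HepG2S1 and HepG2S3.

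SESN2, which inhibits mTORC1 when leucine is short (ENSG00000130766, chr1:28586029-28609002), fell in HepG2S3, at -1.04 ± 0.15 (SE, edgeR adjusted p = 0.0027). SESN2 measured 83.4 and 77.1 CPM in the HepG2 libraries, 52.95 and 44.5 CPM in those of HepG2S3 and 33.8 CPM in HepG2S1. SESN2 went from 23.3 and 23.4 in HCC4006P1 to 29.9 and 27.8 in HCC4006ER, from 21.9 in HCC4006P2 to 27.7 in HCC4006GR, and from 12.5 in HCC827P to 34.2 in HCC827GR. For SESN2, PancB1Q (9.84) and PancB1V (8.46) compare with 10.7 in PancVB, U10 (45.5) and U100 (51.6) with 41.7 in UWB1289, and IGROV-1/CDDP (10.4) with 14.2 in IGROV-1. The HCC4006ER libraries lay a little above those of HCC4006P1, at 0.200 ± 0.14 (SE, edgeR adjusted p = 0.28), which did not pass. HCC827GR stood 1.39 above HCC827P on the log2(CPM + 1) scale, so that SESN2 and DDIT4 went opposite ways there as in HepG2S3.

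NUPR1, a small stress-induced nuclear protein (ENSG00000176046, chr16:28544029-28550329), was nearly silent in some parental lines and had the largest upward change of any member. In HepG2, NUPR1 was at 74.5 and 86.5 CPM, in HepG2S1 at 63.95 and in HepG2S3 at 111 and 91.7. The lung pairs had 8.84 and 3.95 CPM of NUPR1 in HCC4006P1 and 17.4 and 17.9 in HCC4006ER, 83.4 in HCC4006P2 and 66.2 in HCC4006GR, and 0.519 in HCC827P and 2.12 in HCC827GR. Values of NUPR1 elsewhere were 0.0921 in PancVB, 0 in PancB1Q, 0.0805 in PancB1V, 24.95 in UWB1289, 126 in U10, 81.5 in U100, 0.0728 in IGROV-1 and then 25.5 in IGROV-1/CDDP. The PancB1Q value is 0 counts, where the limit taken for a count of 0, 3 counts, is 0.105 CPM, and IGROV-1 holds 2 counts. The change in IGROV-1/CDDP was 4.63 (95% counting interval 4.37 to 4.76), and it was 7.21 with a pseudocount of 0.1 CPM in place of 1. NUPR1 rose in HCC4006ER, at 1.36 ± 0.33 (SE, edgeR adjusted p = 0.017), and the HCC4006P1 replicates lay below both HCC4006ER replicates. U10 and U100 stood 2.29 and 1.67 above UWB1289, and HepG2S3 gave 0.02 ± 0.16 (SE, edgeR adjusted p = 0.94).

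**Figure D4:**
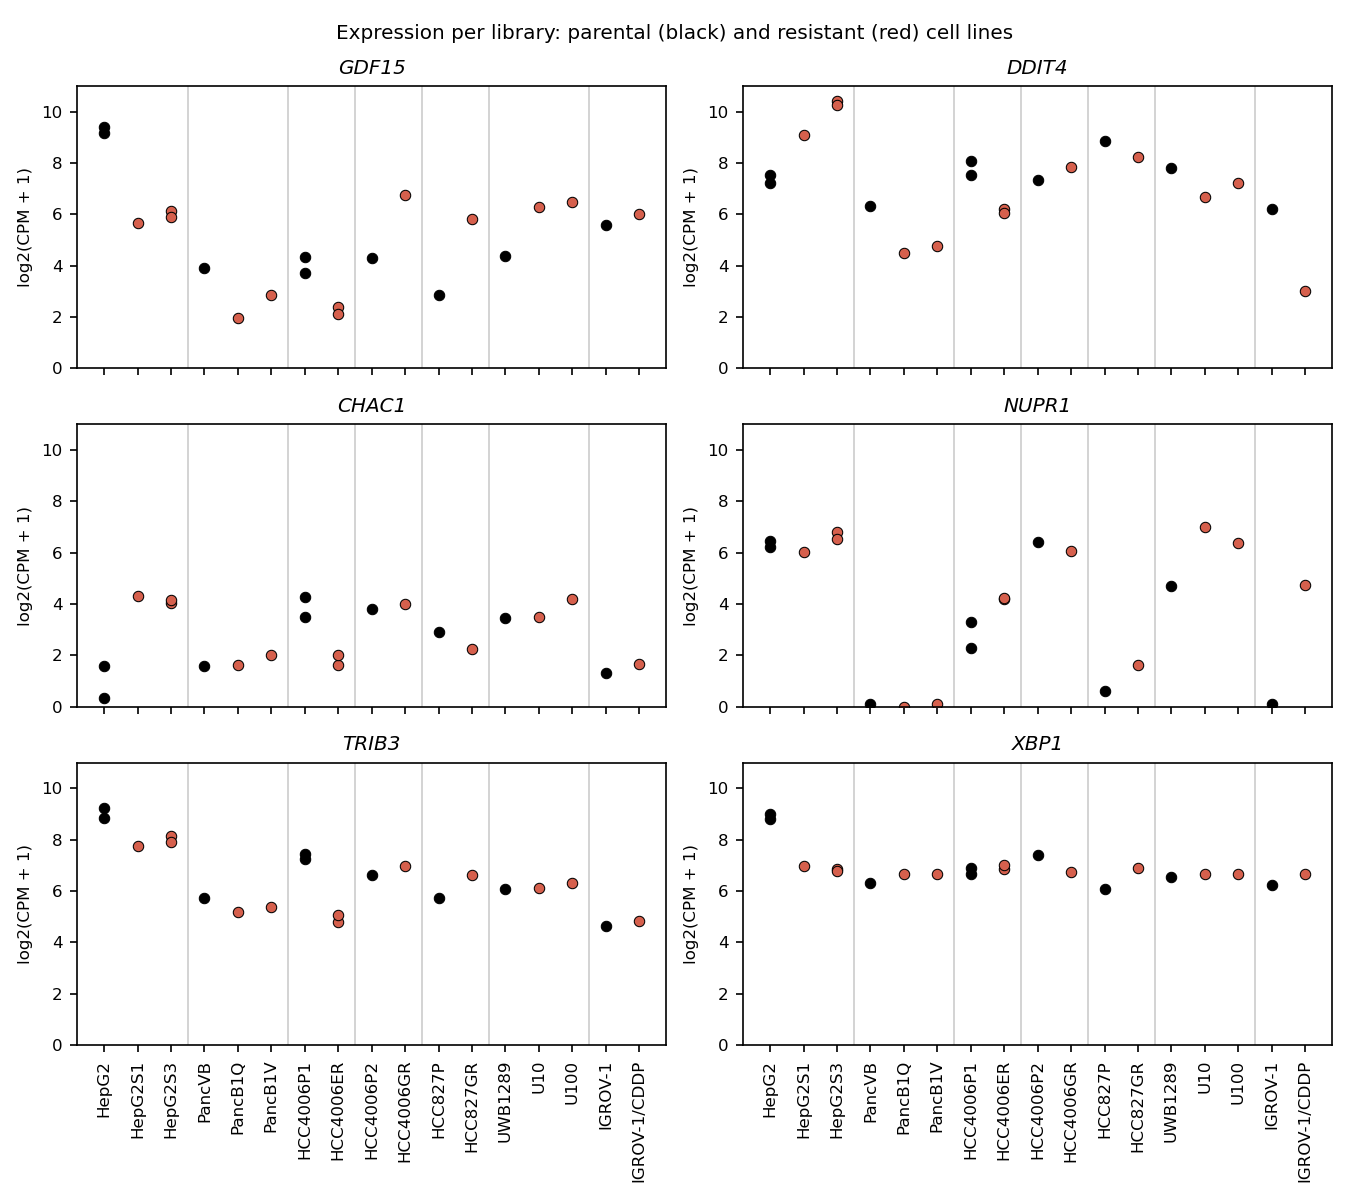
Level of 6 genes in each of the 21 libraries as log2(CPM + 1), with parental lines in black, resistant lines in red and grey lines between the families of a parental line. GDF15 and DDIT4 go down in some families and up in others, while the XBP1 levels of HepG2 stand above those of all other lines.

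CEBPB and CEBPG, the C/EBP partners of ATF4, differed less. CEBPB was higher by at least 1 in HCC4006GR, HCC827GR and PancB1V, with changes up to 1.72, and the lowest change was -0.97. CEBPG stayed between -0.73 and 0.31. Both fell by small amounts in the tests, at -0.396 ± 0.12 (SE, edgeR adjusted p = 0.036) for CEBPB and -0.52 ± 0.13 (SE, edgeR adjusted p = 0.018) for CEBPG in HepG2S3. In HCC4006ER the values were -0.42 ± 0.12 (SE, edgeR adjusted p = 0.026) and -0.56 ± 0.13 (SE, edgeR adjusted p = 0.015). All 4 calls were lost when either library of the resistant line was left out, and those in HepG2S3 also without TMM scaling, at -0.081 for CEBPB and -0.20 for CEBPG.

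Among the amino acid genes, CBS, which joins serine and homocysteine on the way to cysteine (ENSG00000160200, chr21:44473301-44497053), was below its parental level in all 10 pairs, while 0.383% of 19065 genes were below 0 in every pair. CBS was 1 of 36 members and is named for this pattern, and several pairs share a parental line. No member was above 0 in all 10 pairs, as 0.65% of those genes were. CBS stood at 103 and 106 CPM in HepG2, 77.05 in HepG2S1 and 81.8 and 67.7 in HepG2S3. In the lung lines, CBS was at 101 and 96.01 in HCC4006P1 against 38.8 and 43.4 in HCC4006ER, at 146 in HCC4006P2 against 81.6 in HCC4006GR, and at 51.1 in HCC827P against 31.6 in HCC827GR. PancVB had 24.6, PancB1Q 15.5 and PancB1V 11.2, UWB1289 had 246, U10 209 and U100 215, and IGROV-1 had 174 and IGROV-1/CDDP 161. The changes ran from -1.24 in HCC4006ER to -0.11 in IGROV-1/CDDP, on CPM scaled by total counts. The small IGROV-1/CDDP change depends on that scaling. The TMM factors were 1.20 for IGROV-1 and 1.11 for IGROV-1/CDDP, and scaling by them would leave almost no change. That CBS was below in all 10 pairs therefore rests on the scaling by total counts. CBS fell in HepG2S3, at -0.799 ± 0.15 (SE, edgeR adjusted p = 0.006), and in HCC4006ER, at -1.37 ± 0.13 (SE, edgeR adjusted p = 0.00043). The HepG2S3 call was lost without HepG2S3 replicate 2, at -0.65, and was kept at -0.48 without TMM scaling. The test across parental lines gave -0.67 ± 0.17 (SE, edgeR adjusted p = 0.98), which did not pass.

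CTH, the following enzyme, which releases cysteine (ENSG00000116761, chr1:70876901-70905534), was below its parental level in 8 of 10 pairs, by at least 1 in 4. HepG2 gave 39.4 and 103 CPM of CTH, against 21.8 in HepG2S1 and 35.6 and 26.8 in HepG2S3. HCC4006P1 gave 5.69 and 5.49 and HCC4006ER 7.13 and 6.98, HCC4006P2 gave 9.99 and HCC4006GR 6.75, and HCC827P gave 24.4 and HCC827GR 17.04. The CTH level was 7.27 in PancVB, 4.17 in PancB1Q and 2.62 in PancB1V, then 36.6 in UWB1289, 10.2 in U10 and 31.5 in U100, and 10.2 in IGROV-1 against 18.8 in IGROV-1/CDDP. It fell in HepG2S3, at -1.505 ± 0.46 (SE, edgeR adjusted p = 0.035), although the HepG2 replicates themselves spread widely, and the call was lost without HepG2S3 replicate 2, at -1.30, and without TMM scaling, at -1.19. Without HepG2 replicate 2 the value was -0.67, and without HepG2 replicate 1 it was -2.04. HCC4006ER gave 0.23 ± 0.18 (SE, edgeR adjusted p = 0.34). U10 stood -1.74 from UWB1289 while U100, from the same parental line, stood -0.21.

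MTHFD2, a mitochondrial folate enzyme (ENSG00000065911, chr2:74413299-74444692), fell in both tested pairs, at -0.73 ± 0.14 (SE, edgeR adjusted p = 0.007) in HepG2S3 and -1.07 ± 0.13 (SE, edgeR adjusted p = 0.0014) in HCC4006ER. MTHFD2 measured 493 and 556 CPM in the HepG2 libraries, 413 and 373 CPM in those of HepG2S3 and 267 CPM in HepG2S1. MTHFD2 went from 187 and 180.4 in HCC4006P1 to 86.02 and 102 in HCC4006ER, from 159.5 in HCC4006P2 to 122 in HCC4006GR, and from 283 in HCC827P to 86.1 in HCC827GR. For MTHFD2, PancB1Q (192) and PancB1V (133) compare with 172 in PancVB, U10 (189.5) and U100 (253) with 219 in UWB1289, and IGROV-1/CDDP (125) with 87.9 in IGROV-1. The HepG2S3 call was lost without either HepG2S3 replicate, at -0.79 and -0.64, and was kept at -0.42 without TMM scaling. The lowest change was -1.70 in HCC827GR, and 7 of 10 pairs were below 0. In HCC827GR the serine enzymes PHGDH and PSAT1 and asparagine synthetase ASNS were lower as well, at -1.86, -1.27 and -1.20.

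Of the other amino acid genes, ASNS, PSAT1 and PHGDH were higher in IGROV-1/CDDP, by 1.22, 1.14 and 0.93. ASNS, whose promoter carries the CARE core, stood at 24.8 CPM in PancVB against 47.4 and 57.4 CPM in PancB1Q and PancB1V. PSAT1 fell in HepG2S3, at -0.89 ± 0.28 (SE, edgeR adjusted p = 0.037), and so did the proline enzyme PYCR1, at -0.91 ± 0.12 (SE, edgeR adjusted p = 0.0018). The PSAT1 call was lost without TMM scaling, at -0.58, and without either HepG2S3 replicate, at -0.91 and -0.84, and the value was -0.45 without HepG2 replicate 2. PYCR1 was still called without TMM scaling, at -0.59. PHGDH, ALDH18A1 and SLC7A5 rose in HCC4006ER, at 0.58 ± 0.16 (SE, edgeR adjusted p = 0.029), 0.79 ± 0.12 (SE, edgeR adjusted p = 0.003) and 0.91 ± 0.18 (SE, edgeR adjusted p = 0.0084). Of these, the PHGDH call was lost without either HCC4006ER replicate, at 0.71 and 0.44, and the SLC7A5 call without HCC4006ER replicate 2, at 0.66. SHMT2 stayed between -0.80 and 0.52 in all pairs, ALDH18A1 between -0.40 and 0.89 and PYCR1 between -0.92 and 0.22.

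SLC3A2 and SLC7A5 together form the transporter of large neutral amino acids. SLC3A2 was above its parental level in 9 of 10 pairs but never by more than 0.52. SLC7A5 ranged from -0.48 to 1.01 and was above in 6. Neither passed the test in HepG2S3, at 0.21 ± 0.17 (SE, edgeR adjusted p = 0.32) for SLC3A2 and 0.38 ± 0.14 (SE, edgeR adjusted p = 0.063) for SLC7A5.

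GDF15, a cytokine secreted by stressed cells (ENSG00000130513, chr19:18485541-18499986), had the widest range of the members. In HepG2, GDF15 was at 669 and 578 CPM, in HepG2S1 at 50.1 and in HepG2S3 at 68.3 and 58.4. The lung pairs had 19.2 and 12.00 CPM of GDF15 in HCC4006P1 and 4.25 and 3.34 in HCC4006ER, 18.8 in HCC4006P2 and 106 in HCC4006GR, and 6.34 in HCC827P and 54.9 in HCC827GR. Values of GDF15 elsewhere were 14.1 in PancVB, 2.94 in PancB1Q, 6.16 in PancB1V, 19.5 in UWB1289, 76.2 in U10, 88.3 in U100, 47.5 in IGROV-1 and then 62.8 in IGROV-1/CDDP. The value was lower in both HepG2 derivatives, both PancVB derivatives and HCC4006ER, and higher in HCC4006GR, HCC827GR, U10 and U100, each by at least 1. It fell in HepG2S3, at -3.61 ± 0.17 (SE, edgeR adjusted p = 8.2e-05), and in HCC4006ER, at -2.14 ± 0.26 (SE, edgeR adjusted p = 0.0013). In HepG2S1 the change was -3.61 ± 0.15 (SD over 2 pairings of its 1 library, so the spread of HepG2 only). In HCC827GR the change was 2.93 (95% counting interval 2.67 to 3.18) and in HCC4006GR 2.43 (95% counting interval 2.24 to 2.61). The HCC4006ER and HCC4006GR lines, both from HCC4006 and both resistant to an EGFR inhibitor, thus went opposite ways, a difference that could not be tested because HCC4006P2 and HCC4006GR have 1 library each. GDF15 is also a target of p53.

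STC2, a secreted glycoprotein (ENSG00000113739, chr5:172741726-172755450), fell in HepG2S3, at -1.26 ± 0.15 (SE, edgeR adjusted p = 0.0012), and rose in HCC4006ER, at 1.66 ± 0.13 (SE, edgeR adjusted p = 0.0002). STC2 stood at 288 and 351 CPM in HepG2, 185 in HepG2S1 and 169 and 163 in HepG2S3. In the lung lines, STC2 was at 174 and 146 in HCC4006P1 against 533 and 549 in HCC4006ER, at 203 in HCC4006P2 against 558 in HCC4006GR, and at 336 in HCC827P against 119 in HCC827GR. PancVB had 162, PancB1Q 64.3 and PancB1V 63.9, UWB1289 had 367, U10 372 and U100 535, and IGROV-1 had 8.04 and IGROV-1/CDDP 11.6. In each of the tested pairs the libraries of the parental and the resistant line did not overlap. HCC4006GR moved with HCC4006ER, by 1.45, while HCC827GR, PancB1Q and PancB1V stood lower by at least 1.

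VLDLR, a lipoprotein receptor that ATF4 induces (ENSG00000147852, chr9:2621182-2660056), was lower in the HepG2 and PancVB derivatives and higher in the lung and IGROV-1 derivatives. HepG2 gave 26.4 and 75.5 CPM of VLDLR, against 11.3 in HepG2S1 and 21.96 and 16.97 in HepG2S3. HCC4006P1 gave 43.8 (replicate 2 alone) and HCC4006ER 102 and 106, HCC4006P2 gave 70.99 and HCC4006GR 123, and HCC827P gave 46.6 and HCC827GR 94.5. The VLDLR level was 2.58 in PancVB, 0.77 in PancB1Q and 0.805 in PancB1V, then 19.2 in UWB1289, 24.7 in U10 and 24.5 in U100, and 15.1 in IGROV-1 against 47.3 in IGROV-1/CDDP. Its fall in HepG2S3, at -1.698 ± 0.50 (SE, edgeR adjusted p = 0.03), was a call lost without HepG2S3 replicate 2, at -1.51, and without TMM scaling, at -1.39. Without HepG2 replicate 2 the value was -0.77, and without HepG2 replicate 1 it was -2.27. HepG2 replicate 2 held more VLDLR than replicate 1, and the change of HepG2S1 was -2.64 without replicate 1 and -1.16 without replicate 2. In PancB1Q and PancB1V the levels rest on few counts, near 0.77 and 0.805 CPM.

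Among the ER genes, HSPA5, the main ER chaperone (ENSG00000044574, chr9:127997132-128003661), changed by at most 0.56 in any pair on log2(CPM + 1) scaled by total counts. The edgeR values use TMM scaling and can lie outside that range. HSPA5 measured 1331 and 922 CPM in the HepG2 libraries, 821 and 828 CPM in those of HepG2S3 and 809 CPM in HepG2S1. HSPA5 went from 778 (replicate 2 alone) in HCC4006P1 to 984 and 968 in HCC4006ER, from 325 in HCC4006P2 to 479 in HCC4006GR, and from 458 in HCC827P to 641 in HCC827GR. For HSPA5, PancB1Q (573) and PancB1V (505) compare with 724 in PancVB, U10 (534) and U100 (518) with 496 in UWB1289, and IGROV-1/CDDP (551) with 554 in IGROV-1. It fell in HepG2S3, at -0.77 ± 0.22 (SE, edgeR adjusted p = 0.027), but the call was lost without TMM scaling, at -0.45, and without either HepG2S3 replicate, at -0.74 and -0.75. The HSPA5 value was -0.47 without HepG2 replicate 1 and -1.02 without HepG2 replicate 2. The HepG2 replicates alone differed by -0.53 on the log2(CPM + 1) scale. HSP90B1, the ER form of HSP90, stayed between -0.30 and 0.32 in all pairs on log2(CPM + 1) scaled by total counts.

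XBP1, the transcription factor that IRE1 activates by splicing its mRNA (ENSG00000100219, chr22:29190543-29196585), was the ER gene with the largest fall. In HepG2, XBP1 was at 513 and 452 CPM, in HepG2S1 at 126 and in HepG2S3 at 117 and 110.3. The lung pairs had 119 and 101 CPM of XBP1 in HCC4006P1 and 115 and 128 in HCC4006ER, 167 in HCC4006P2 and 106 in HCC4006GR, and 67.4 in HCC827P and 117 in HCC827GR. Values of XBP1 elsewhere were 77.7 in PancVB, 101 in PancB1Q, 101 in PancB1V, 93.6 in UWB1289, 99.5 in U10, 102 in U100, 74.6 in IGROV-1 and then 100.3 in IGROV-1/CDDP. Both HepG2 libraries were far above every other library, and HepG2S1 and HepG2S3 were in the range of the other lines. The test of HepG2S3 gave -2.402 ± 0.14 (SE, edgeR adjusted p = 0.00015), and HCC4006ER gave 0.04 ± 0.13 (SE, edgeR adjusted p = 0.82). HepG2S1 stood -1.93 ± 0.13 (SD over 2 pairings of its 1 library, so the spread of HepG2 only) from HepG2. Over the 8 pairs outside HepG2 the changes ran from -0.65 in HCC4006GR to 0.79 in HCC827GR.

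DNAJB9 (ERdj4), a co-chaperone of HSPA5 that XBP1 induces (ENSG00000128590, chr7:108210311-108215294), fell in HepG2S3, at -1.47 ± 0.14 (SE, edgeR adjusted p = 0.00068). DNAJB9 stood at 49.3 and 45.2 CPM in HepG2, 19.3 in HepG2S1 and 21.7 and 20.9 in HepG2S3. In the lung lines, DNAJB9 was at 13.2 (replicate 2 alone) in HCC4006P1 against 18.5 and 17.8 in HCC4006ER, at 27.6 in HCC4006P2 against 32.04 in HCC4006GR, and at 15.9 in HCC827P against 45.6 in HCC827GR. PancVB had 10.7, PancB1Q 14.1 and PancB1V 14.7, UWB1289 had 23.1, U10 41.1 and U100 41.3, and IGROV-1 had 21.9 and IGROV-1/CDDP 25.8. It was above the parental level in all 8 pairs outside HepG2, by at least 1 in HCC827GR, at 1.46. The share of all genes above 0 in those 8 pairs is not given here.

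HERPUD1 (ENSG00000051108, chr16:56966054-56978776), which assembles the complex of ER-associated degradation, fell in HepG2S3, at -1.18 ± 0.16 (SE, edgeR adjusted p = 0.002). HepG2 gave 177 and 225 CPM of HERPUD1, against 105 in HepG2S1 and 114 and 107 in HepG2S3. HCC4006P1 gave 66.1 and 52.2 and HCC4006ER 76.7 and 77.8, HCC4006P2 gave 76.4 and HCC4006GR 55.8, and HCC827P gave 52.9 and HCC827GR 108. The HERPUD1 level was 34.3 in PancVB, 45.7 in PancB1Q and 44.4 in PancB1V, then 108 in UWB1289, 88.04 in U10 and 86.3 in U100, and 58.5 in IGROV-1 against 62.8 in IGROV-1/CDDP. Both HepG2S3 libraries lay below both HepG2 libraries, whereas HCC4006ER gave 0.28 ± 0.13 (SE, edgeR adjusted p = 0.13).

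SEL1L (ENSG00000071537, chr14:81937891-82000197), the adaptor of the ubiquitin ligase HRD1, gave -1.11 ± 0.14 (SE, edgeR adjusted p = 0.0018) in HepG2S3. SEL1L measured 227 and 265 CPM in the HepG2 libraries, 149 and 134 CPM in those of HepG2S3 and 92.2 CPM in HepG2S1. SEL1L went from 258 and 209 in HCC4006P1 to 270.1 and 247 in HCC4006ER, from 470.3 in HCC4006P2 to 272 in HCC4006GR, and from 177 in HCC827P to 138 in HCC827GR. For SEL1L, PancB1Q (124) and PancB1V (106) compare with 144 in PancVB, U10 (104) and U100 (161) with 131 in UWB1289, and IGROV-1/CDDP (128) with 101 in IGROV-1. HCC4006P2 held the most SEL1L of all lines, and HCC4006GR stood -0.79 from it. HCC4006ER gave 0.05 ± 0.13 (SE, edgeR adjusted p = 0.8).

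EDEM1 (ENSG00000134109, chr3:5229331-5261643), a mannosidase-like protein that hands over misfolded glycoproteins, gave -1.16 ± 0.13 (SE, edgeR adjusted p = 0.001) in HepG2S3. In HepG2, EDEM1 was at 119 and 113 CPM, in HepG2S1 at 53.4 and in HepG2S3 at 67.2 and 62.4. The lung pairs had 53.3 and 47.6 CPM of EDEM1 in HCC4006P1 and 55.8 and 55.9 in HCC4006ER, 87.7 in HCC4006P2 and 103 in HCC4006GR, and 55.4 in HCC827P and 80.8 in HCC827GR. Values of EDEM1 elsewhere were 75.6 in PancVB, 96.6 in PancB1Q, 88.7 in PancB1V, 58.3 in UWB1289, 65.1 in U10, 72.8 in U100, 56.8 in IGROV-1 and then 62.4 in IGROV-1/CDDP. In HCC4006ER, where the libraries lay close to those of HCC4006P1, it gave 0.04 ± 0.12 (SE, edgeR adjusted p = 0.79). It stood above the parental level in 8 of 10 pairs.

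HYOU1 (ENSG00000149428, chr11:118914899-118927938), a nucleotide exchange factor for HSPA5 whose promoter holds the UPRE letters, fell in HepG2S3, at -1.18 ± 0.12 (SE, edgeR adjusted p = 0.00091). HYOU1 stood at 418 and 411 CPM in HepG2, 295 in HepG2S1 and 235 and 221 in HepG2S3. In the lung lines, HYOU1 was at 143 and 159.6 in HCC4006P1 against 182 and 182 in HCC4006ER, at 90.5 in HCC4006P2 against 161 in HCC4006GR, and at 148 in HCC827P against 215 in HCC827GR. PancVB had 362, PancB1Q 281 and PancB1V 284, UWB1289 had 429, U10 434 and U100 495, and IGROV-1 had 217 and IGROV-1/CDDP 200.1. In HCC4006ER it gave 0.16 ± 0.13 (SE, edgeR adjusted p = 0.36), and the changes of the other pairs ran from -0.49 in HepG2S1 to 0.82 in HCC4006GR.

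PDIA4 (ENSG00000155660, chr7:148700154-148725754), a disulfide isomerase, gave -1.07 ± 0.32 (SE, edgeR adjusted p = 0.033) in HepG2S3. HepG2 gave 638 and 336 CPM of PDIA4, against 257 in HepG2S1 and 264 and 312 in HepG2S3. HCC4006P1 gave 281 (replicate 2 alone) and HCC4006ER 185 and 188, HCC4006P2 gave 271 and HCC4006GR 306, and HCC827P gave 239 and HCC827GR 273. The PDIA4 level was 202 in PancVB, 281 in PancB1Q and 263 in PancB1V, then 158 in UWB1289, 216 in U10 and 177 in U100, and 417 in IGROV-1 against 406 in IGROV-1/CDDP. That call was lost without TMM scaling, at -0.76, and without either HepG2S3 replicate, at -0.94 and -1.18, and HepG2 replicate 2 held far less PDIA4 than replicate 1. The PDIA4 value was -0.53 without HepG2 replicate 1 and -1.48 without HepG2 replicate 2.

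Not all ER genes went down in the HepG2 derivatives. CALR, SDF2L1 and CRELD2 stood above HepG2 in both, by 0.58, 0.87 and 0.88 in HepG2S1 and by 0.40, 0.37 and 0.83 in HepG2S3, beside 0.25 and 0.28 for the median of all genes. In the test of HepG2S3 they gave 0.09 ± 0.23 (SE, edgeR adjusted p = 0.77), 0.08 ± 0.24 (SE, edgeR adjusted p = 0.79) and 0.55 ± 0.29 (SE, edgeR adjusted p = 0.15). CALR and CRELD2 carry the ERSE, as do HSPA5 and XBP1, which fell, and HSP90B1, which gave -0.41 ± 0.20 (SE, edgeR adjusted p = 0.13). SDF2L1 was the only other ER gene besides DNAJB9 and HERPUD1 to be higher by at least 1 in any pair, in U10, at 1.18.

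The difference between the HepG2S3 change and the HCC4006ER change was itself tested, as HepG2S3 against HepG2 minus HCC4006ER against HCC4006P1. Of 15800 genes, 53.5% were called, with 27% higher and 26.5% lower. Of the 30 members tested, 4 were called higher and 13 lower. The largest differences were 6.11 ± 0.90 (SE, edgeR adjusted p = 0.00057) for CHAC1 and 4.49 ± 0.27 (SE, edgeR adjusted p = 3.5e-06) for DDIT4, both higher in HepG2S3. STC2 gave -2.89 ± 0.20 (SE, edgeR adjusted p = 8.4e-06), XBP1 gave -2.42 ± 0.20 (SE, edgeR adjusted p = 2.0e-05) and ATF3 gave -1.98 ± 0.30 (SE, edgeR adjusted p = 0.00068). Of the 9 ER genes tested, XBP1, HERPUD1, SEL1L, EDEM1 and HYOU1 were called, all lower in HepG2S3. GDF15 fell in both pairs and still differed, at -1.45 ± 0.31 (SE, edgeR adjusted p = 0.0043).

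**Figure D5:**
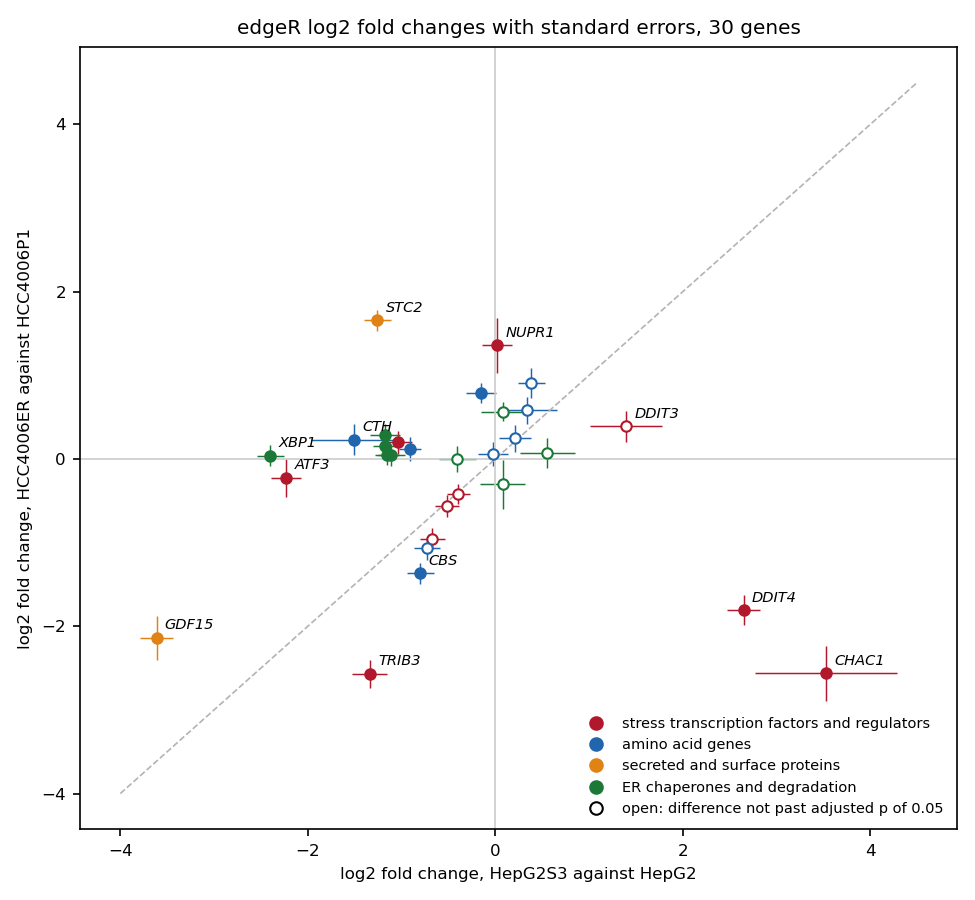
edgeR log2 fold change with its standard error for 30 genes, HepG2S3 against HepG2 on the horizontal axis and HCC4006ER against HCC4006P1 on the vertical axis, coloured by role, with filled points for a called difference between the pairs and a dashed line of equal change. CHAC1 and DDIT4 lie at the lower right (3.53 and 2.65 against -2.56 and -1.81). The 5 ER genes with filled points lie left of 0 near the horizontal line, as does HSP90B1 with an open point.

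Across the 7 parental lines, with resistant lines summed per parental line and the parental line as a block, 0% of 15847 genes were called by edgeR, and none of the 36 members. At an unadjusted p under 0.05, 722 genes passed, and DESeq2 called 102 genes, of which 0 were members. CBS gave -0.67 ± 0.17 (SE, edgeR adjusted p = 0.98), DDIT3 gave 0.63 ± 0.22 (SE, edgeR adjusted p = 0.98) and NUPR1 gave 1.57 ± 0.92 (SE, edgeR adjusted p = 0.98). ATF4 gave -0.21 ± 0.18 (SE, edgeR adjusted p = 0.99), HSPA5 gave 0.04 ± 0.19 (SE, edgeR adjusted p = 1) and XBP1 gave -0.097 ± 0.37 (SE, edgeR adjusted p = 0.99). The standard error of GDF15 was 0.97, the largest of the members, and its sign differed between families.

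Another 60 genes of the same pathways, from lists of stress sensors, further ATF4 targets and further ER genes, were examined beside the members. In HepG2S3, 13 of 59 tested rose and 24 fell, beside 31.4% and 32.1% of all genes. Of the 25 other ATF4 targets tested, 4 rose and 11 fell, led by PCK2 (-2.71 ± 0.18 (SE, edgeR adjusted p = 0.0002)), SLC7A1 (-2.47 ± 0.18 (SE, edgeR adjusted p = 0.00028)) and SLC38A2 (-2.43 ± 0.15 (SE, edgeR adjusted p = 0.00018)), the last 2 being amino acid transporters. Among the other ER genes 3 of 20 rose and 10 fell, and DERL3, a degradation factor, had the largest rise, at 3.803 ± 0.38 (SE, edgeR adjusted p = 0.00073), followed among all these genes by EIF2B1 (1.16 ± 0.17 (SE, edgeR adjusted p = 0.0024)) and TARS1 (1.04 ± 0.14 (SE, edgeR adjusted p = 0.0019)). Of the 14 stress sensors and eIF2 regulators, 6 rose and 3 fell.

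In HCC4006ER, 10 of 51 other pathway genes rose and 14 fell, shares near the 22.5% and 23.6% of all genes. SLC7A11, the cystine importer, fell most, at -3.81 ± 0.14 (SE, edgeR adjusted p = 2.0e-05), followed by the ER oxidase ERO1A (-1.55 ± 0.13 (SE, edgeR adjusted p = 0.00028)) and PCK2 (-1.51 ± 0.22 (SE, edgeR adjusted p = 0.0026)). ERO1B, a related oxidase, rose at 2.08 ± 0.28 (SE, edgeR adjusted p = 0.0018), as did VEGFA (1.199 ± 0.15 (SE, edgeR adjusted p = 0.0013)) and HSPA13 (0.99 ± 0.14 (SE, edgeR adjusted p = 0.002)). The other pathway genes called lower in both tested pairs were PCK2, SLC7A11, SLC7A1, ERO1A, ERN1, PDIA3 and PDIA6. The members called lower in both were GDF15, TRIB3, CBS, MTHFD2, ATF4, CEBPB and CEBPG. The share of all genes called lower in both pairs is not given here. In the test of the difference, DERL3 (4.05 ± 0.48 (SE, edgeR adjusted p = 0.00017)), SLC7A11 (1.87 ± 0.39 (SE, edgeR adjusted p = 0.0037)) and PPP1R15B (1.48 ± 0.18 (SE, edgeR adjusted p = 0.00017)) were highest in HepG2S3 relative to HCC4006ER, and SLC38A2 (-2.74 ± 0.27 (SE, edgeR adjusted p = 5.4e-05)), SLC1A4 (-2.51 ± 0.24 (SE, edgeR adjusted p = 4.5e-05)) and VEGFA (-2.44 ± 0.23 (SE, edgeR adjusted p = 4.9e-05)) lowest.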

How the data were processed

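RNA was sequenced from 17 cancer cell lines in 21 libraries. The authors deposited counts per gene, made with HTSeq on genome build hg19 from reads mapped with TopHat or, for the 3′ end kit, STAR, and these counts were not normalized. Rows that name no gene held 28.0% to 42.8% of the counts of a library and were left out. Each library was scaled to CPM by its summed gene counts, replicates were averaged, and changes were taken on log2(CPM + 1). Intervals are 95% Wilson intervals of each count combined over both lines, and cover counting error only. Resistant lines were paired with the parental lines that the study's methods give, and replicate numbers follow the letters of the cell line labels, although another label gives both HepG2 libraries the same number and likewise both HepG2S3 libraries.

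The quasi-likelihood test of edgeR 4.0.16 (R 4.3.3) was used with TMM, filterByExpr and a two-sided Benjamini-Hochberg adjusted p under 0.05 over all genes. The total of HCC4006P1 replicate 1 was scaled to a whole library, since 18.1% of the counts of replicate 2 lie where it has none. The SE is the absolute log2 fold change divided by the root of F. The tests were checked on simulated data. Alternatives were DESeq2 1.42.0, no TMM, no filter, the replicate number as a block, a pseudocount of 0.1 CPM, TMM-scaled totals, totals as deposited and each replicate library left out. The summary without the HepG2 pairs was chosen after seeing the data.

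Members and lists were chosen with earlier results of these data known. Members are given with every library's value where they passed the test with a log2 fold change of at least 1, or changed by at least 2 in a pair. ATF4, DDIT3, HSPA5 and XBP1 are given in any case, and of other pathway genes up to 3 rising and 3 falling per test. Symbols and positions are from GENCODE on GRCh37, and promoter windows from RefSeq. Summaries and figures used pandas 2.3.3, numpy 2.4.6 and matplotlib 3.10.9 in Python 3.11.15. Protein sequences were not used here.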

Additional observations from a re-analysis of the deposited data

Results flagged for a closer look

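Of the 30 genes tested in both pairs, 17 differed between the HepG2S3 change and the HCC4006ER change at an adjusted p under 0.05 in the edgeR test of the difference, beside 53.5% of all genes tested. The 14 of them that are given above with all their values are singled out here for that difference. The difference, HepG2S3 minus HCC4006ER, was 6.11 for CHAC1, 4.49 for DDIT4 and 1.25 for TRIB3. It was -2.89 for STC2, -2.42 for XBP1, -1.98 for ATF3, -1.72 for CTH and -1.45 for GDF15. It was -1.44 for HERPUD1, -1.32 for NUPR1, -1.31 for HYOU1, -1.21 for SESN2, -1.18 for EDEM1 and -1.13 for SEL1L. CHAC1 and DDIT4 rose in HepG2S3 and fell in HCC4006ER, and STC2 fell and rose. TRIB3 and GDF15 fell in both. The call of NUPR1 was lost without TMM scaling, without HepG2S3 replicate 2 and without either HCC4006ER replicate. That of CTH was lost without TMM scaling, without HepG2S3 replicate 2 and without any single HCC4006 replicate, and the CTH difference was -0.86 without HepG2 replicate 2.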

How the results depend on the processing

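Of the main summaries, 256 alternative values stayed within their spread or within 1.5 times the count and 33 did not. For single genes 590 were unchanged in this sense, 58 lost and 4 gained a call, and 34 moved by more than their spread. No value changed sign past its threshold.

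With DESeq2, 102 genes were called across the 7 parental lines instead of 0. With all genes as deposited, 3417 genes and 3 rising members were called in HCC4006ER. Without TMM, 6 members rose and 14 fell in HepG2S3. With TMM-scaled totals, 17 members were lower by at least 1 in HepG2S1, 14 in HepG2S3, and 1 was higher in PancB1Q. The shares of all genes under that scaling are not given here. Without a filter on low values the median of all genes was 0, and the medians of amino acid and ER genes less it were -0.44 and -0.70 in HepG2S1, -0.36 and -0.77 in HepG2S3, 0.15 and -0.011 in PancB1Q, and 0.29 and 0.16 in HCC4006ER. Without the HepG2 pairs, 23 values were lower by at least 1 instead of 41. The causes were not tested, apart from the filter, which by its construction changes the genes behind the median.

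Leaving out each replicate in turn assumes that the lone library varies like the others. It gave 7341 to 13242 genes called in HepG2S3, 3638 to 8756 in HCC4006ER and 6669 to 8807 for the difference. Rising and falling members were 2 to 7 and 12 to 24 in HepG2S3, 3 to 8 and 7 to 10 in HCC4006ER, and 3 to 6 and 11 to 14 for the difference. Members higher and lower by at least 1 were 2 to 5 and 10 to 13 in HepG2S1, 3 to 4 and 5 to 8 in HepG2S3, and 2 to 4 and 5 to 6 in HCC4006ER. Medians of amino acid genes less all genes were -0.70 to -0.51 in HepG2S1, -0.78 to -0.29 in HepG2S3 and 0.072 to 0.23 in HCC4006ER. Those of ER genes were -0.99 to -0.68, -1.04 to -0.79 and 0.056 to 0.15. For HCC4006ER, the ranges of members past 1 and of medians also include a change of gene set. Without HCC4006P1 replicate 2, the genes with no counts in replicate 1 drop out.

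The replicate number as a block gave 10561 genes in HepG2S3, 7724 in HCC4006ER and 8430 for the difference, with 3 members rising and 21 falling, 6 and 9, and 5 and 13. Deviations of same-numbered libraries correlated at 0.0145 for HepG2 and 0.245 for HCC4006, and with 2 pairs each the samples are taken to share only a number.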
